A study of Mus musculus with 4 samples.

Results

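The adipocyte nuclei of inguinal white adipose tissue (iWAT) were compared between mice kept for 7 days in the cold and mice kept at room temperature. The nuclei were those that the authors' clustering of single-nucleus ATAC-seq data placed in the clusters Adipocyte (called white below) and Beige, and they were summed per mouse. They numbered 1558 in the 6 mice compared, of 7004 adipocyte nuclei and 32552 nuclei in the 21 mice of the whole series. The day7C group held 921 of them, 651 white and 270 beige, and the day0RT group held 637, 579 white and 58 beige. All mice were C57BL/6 males with no genetic change given, and by the paper's methods treatment began at an age of 8 weeks. The 3 day0RT mice stayed at 22 °C without treatment, and the 3 day7C mice stayed at 6.5 °C. The day0RT tissue was taken before any treatment began, whereas the day7C tissue was taken after 7 days in the cold. No untreated mice were sampled after 7 days more at room temperature, so cold and elapsed time cannot be told apart. The other 5 groups spent 1 or 3 days in the cold or received CL-316,243 for 1, 3 or 7 days. CL-316,243 is an Adrb3 agonist and was given at 1 mg/kg. These groups are not compared here beyond side-by-side values. Their mice did enter the gene and peak fits, where they helped set the filter, the scaling and the estimate of spread. They share the day0RT mice as controls.

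White adipocytes store triglyceride and release fatty acids and hormones, whereas beige adipocytes carry many mitochondria and make heat, chiefly through the uncoupling protein Ucp1. In the cold, noradrenaline acts on adrenergic receptors of adipocytes, which releases fatty acids as fuel, and thermogenic fat is also known to rebuild its fatty acids from glucose by de novo lipogenesis. In ATAC-seq a transposase cuts DNA where chromatin is open, so a peak is a stretch of accessible chromatin. Gene accessibility here is the summed count over the peaks of a gene body and 2000 bases upstream, in CPM, the count scaled to the library total, after TMM scaling.

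The sequences that recur in the results are printed here, each a window of a peak called between the groups, with the letters of a consensus motif in capitals. The windows are from the plus strand of GRCm38.p6 (RefSeq genome), a patch release of mm10, the build of the peaks. The Acly window, chr11:100505434-100505559, lies in an intron of the gene for ATP citrate lyase and holds an E-box, CACGTG. The Elovl6 window, chr3:129551346-129551474, lies in an intron of a fatty acid elongase and holds the consensus of estrogen-related receptors (ESRR), TCAAGGTCA, on the minus strand. The same consensus stands in chr9:26498411-26498539, between genes and nearest to B3gat1. The NBRE, AAAGGTCA, the consensus of NR4A receptors, stands in chr12:41044509-41044614 in an intron of Immp2l, and that of MEF2 in chr7:64397728-64397857 in an intron of Mcee. The palindrome of the steroid receptors NR3C stands in chr10:79896788-79896816, within Med16 and next to the adipsin gene Cfd, where annotated exons overlap the window. Apart from Acly and Elovl6, which were taken for their genes, each window comes from the peak with the motif and the smallest p, among peaks higher in day7C, or lower for NR3C.
Acly: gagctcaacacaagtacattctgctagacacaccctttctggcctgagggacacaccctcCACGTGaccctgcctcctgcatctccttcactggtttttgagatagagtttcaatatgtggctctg
Elovl6: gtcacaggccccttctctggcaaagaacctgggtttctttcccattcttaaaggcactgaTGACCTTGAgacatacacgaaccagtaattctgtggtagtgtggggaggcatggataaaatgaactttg
B3gat1: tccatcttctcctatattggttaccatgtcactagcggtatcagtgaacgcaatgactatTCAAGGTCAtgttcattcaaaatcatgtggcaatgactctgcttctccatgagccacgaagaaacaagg
Immp2l: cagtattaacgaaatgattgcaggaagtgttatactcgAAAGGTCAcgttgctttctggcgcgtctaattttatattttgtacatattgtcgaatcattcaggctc
Mcee: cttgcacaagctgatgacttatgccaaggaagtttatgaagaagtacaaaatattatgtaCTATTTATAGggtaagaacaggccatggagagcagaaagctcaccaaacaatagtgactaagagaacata
Cfd: aagagcagGGACATGCTGTCCtgggtgtc

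The mice gave 156 to 285 adipocyte nuclei in day0RT and 293 to 326 in day7C, with a median of 1330.5 to 2697 counts per nucleus in day0RT and 2058 to 3513.5 in day7C. The deposited matrix holds no value above 1, so a count is a nucleus with reads in a peak, and peaks open in most nuclei are flattened more in deeper nuclei. No barcode was shared between the groups, but room temperature and cold mice carried different sets of the second barcode index (12 each, 0 shared), so index set and treatment cannot be told apart. All 10 adipocyte markers passed the filter, with a summed 3152 to 3743 CPM in day0RT and 2953 to 3207 in day7C, which overlap. The authors named the clusters with the help of marker genes from these same counts, so this does not test the labels. Singly, 6 of the 10 adipocyte markers were called lower in day7C (Adipoq, Plin1, Lipe, Cidec, Cebpa and Fabp4), against 2.11% of all tested genes. None was called higher, and the median log2 fold change was -0.41. The 8 beige markers summed to 1152 to 1323 CPM in day0RT and 1454 to 1753 in day7C, without overlap. Of the 8, 6 were called higher, against 2.97% of all tested genes. With the beige nuclei of day7C drawn down to the day0RT share, 1 of the 8 was called higher. The summed markers of other cells overlapped between the groups. B cell markers summed to 162 to 235 CPM in day0RT and 138 to 167 in day7C, against 2093 to 2428 in the B cell cluster itself. T cell markers spanned 113 to 166 and 99.4 to 115 CPM, macrophage and dendritic cell markers 132 to 169 and 133 to 139, and skeletal muscle markers, 2 of 10 at 0 in all mice, 127 to 144 and 114 to 139. Endothelial markers spanned 291 to 388 and 338 to 380 CPM, progenitor markers 278 to 369 and 295 to 330, and mural markers 313 to 323 and 280 to 313. In their own clusters the T cell list summed to 1537 to 2028 CPM, the endothelial list to 1526 to 1729 (2 libraries) and the progenitor list to 860 to 1598. The mural list summed to less in the cluster it was set against (180 to 232 CPM, 2 libraries). The paper reports higher accessibility of Acta2, Myh11 and Pdgfrb in its progenitor cluster APC2, and of Myh4 and Myod1 in its smooth muscle cluster. This sum therefore cannot show how well the list marks mural cells. Single markers of other cells called were Pax5 of B cells (-0.56) and Mcam of mural cells (-0.59), both lower in day7C, and Fbn1 of progenitors (0.64). Their part in the results below was not tested.

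Beige nuclei took a larger share of the adipocyte nuclei in every cold mouse. The Beige cluster made up 29.4% ± 3.20 (SD, n = 3) of adipocyte nuclei in day7C and 9.22% ± 2.62 in day0RT. All 3 day7C mice, at 26.1% to 32.5%, lay above all 3 day0RT mice, at 7.69% to 12.2%. The difference of 20.2 percentage points gave p = 0.1 in a two-sided exact permutation test, the smallest p that 3 mice against 3 allow. Adipocytes of either kind made up 19.4% ± 3.82 of all nuclei in day7C and 13.1% ± 3.77 in day0RT, a difference of 6.29 percentage points with overlapping mice (exact p = 0.2). Among nuclei that are not lymphocytes the mice did not overlap, at 61.0% to 74.4% in day7C and 33.8% to 60.5% in day0RT. The difference was 21.2 points, at the smallest p allowed (exact p = 0.1). Of the other nuclei counted there, dendritic cells went from 308 in day0RT to 88 in day7C, macrophages from 240 to 109 and cluster APC1 from 83 to 70. The clusters APC2 (68 to 90), VEC (26 to 37) and VSMC (5 to 60) rose. Fewer other nuclei also raise this share, and their part was not tested. A sum over nuclei cannot tell a change within each nucleus from a change in which nuclei make up the sum, so every comparison below was made both with white and beige nuclei and with white nuclei only.

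Across genes, 733 of 14429 tested (5.08%) differed between day7C and day0RT at an adjusted p under 0.05. Of these 428 were higher in day7C (2.97% of the tested genes) and 305 lower (2.11%). In white nuclei alone 253 of 13508 genes (1.87%) were called, 153 higher (1.13%) and 100 lower (0.74%). Of these 253, 229 were among the 733, which is 90.5% of the white list and 31.2% of the combined list. The white nuclei are part of both sums, so the overlap is no independent repeat. With the beige nuclei of day7C drawn down to the day0RT share, 306 genes were called. DESeq2 called 300 genes in the combined sum and 76 in white nuclei. With every nucleus thinned to 1000 counts, 53 of 8925 genes were called, and 595 of the 606 called genes still tested kept their direction.

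De novo lipogenesis, the making of fatty acids from acetyl-CoA, was the list with the most members higher in day7C. Of its 24 tested members 10 rose, against 2.97% of all tested genes, 1 fell and 13 were not called. The median log2 fold change was 0.34 against -0.01 over all genes. The paper already names Acly, Acaca, Fasn and Elovl6 as changed in these same adipocytes after cold and CL. The count is therefore no independent result. In white nuclei only, 9 of 24 rose, against 1.13% of all genes, with a median of 0.36. The members that rose cover the pathway from cytosolic acetyl-CoA to long chains. Acly, which makes acetyl-CoA from citrate, measured 98.6, 82.5 and 96.1 CPM in day0RT mice 1 to 3 and 263, 186 and 171 CPM in day7C mice 1 to 3. Every day7C mouse was above every day0RT mouse, with a log2 fold change of 1.12 ± 0.20 (SE; adjusted p = 5.87e-05). In white nuclei only the change was 1.11 (adjusted p = 0.00115). Acss2, which makes acetyl-CoA from acetate, measured 129, 108 and 132 CPM in day0RT and 287, 151 and 184 CPM in day7C. Its lowest day7C mouse was little above the highest day0RT mouse, and the log2 fold change was 0.73 ± 0.16 (adjusted p = 0.00237).

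Both acetyl-CoA carboxylases, which make malonyl-CoA, were higher. Acaca measured 386, 366 and 376 CPM in day0RT and 840, 684 and 582 CPM in day7C. The day0RT mice lay close together and all day7C mice far above them (log2 fold change 0.89 ± 0.12, adjusted p = 3.44e-07; white nuclei 0.87). Acacb, the form tied to mitochondria, rose less, from 343, 409 and 403 CPM to 566, 525 and 543 CPM (0.50 ± 0.11, adjusted p = 0.0014). Fasn, the fatty acid synthase, measured 129, 108 and 123 CPM in day0RT and 222, 236 and 184 CPM in day7C, again without overlap. Its log2 fold change was 0.79 ± 0.16 (adjusted p = 0.000844), and 0.84 in white nuclei.

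Elovl6, which lengthens the product of Fasn, had the largest change among the called members. It measured 259, 143 and 179 CPM in day0RT and 582, 400 and 395 CPM in day7C. The groups did not overlap, and the log2 fold change was 1.22 ± 0.15 (adjusted p = 1.58e-08). White nuclei alone gave 1.12 (adjusted p = 9.98e-06). The elongase Elovl5 (0.60 ± 0.15), the desaturase gene Scd2 (0.85 ± 0.22), the NADPH supplier Me1 (0.84 ± 0.14) and the gene Tkt (0.87 ± 0.15) also rose. Scd2 was the member not called in white nuclei (0.69, adjusted p = 0.124). Fads3, of the fatty acid desaturase family, was the member that fell, from 134, 147 and 109 CPM to 62.2, 62.0 and 80.6 CPM (-0.82 ± 0.16, adjusted p = 0.000274). Among the 10 genes that rose, day7C mouse 1 was the highest in 9. Without that mouse 7 members were called higher, and 5 in white nuclei, where Acly was among those lost. In white nuclei 6 were called without day0RT mouse 2 or 3. Acacb lost its white call whichever of the 6 mice was left out, Acss2 in 4 of the 6 fits and Elovl5 in 3. In the combined sum DESeq2 called 8 of the 10, without Acss2, and gave no adjusted p for Scd2. In white nuclei it called 6 of the 9, without Acacb, Acss2 and Elovl5.

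**Figure D1:**
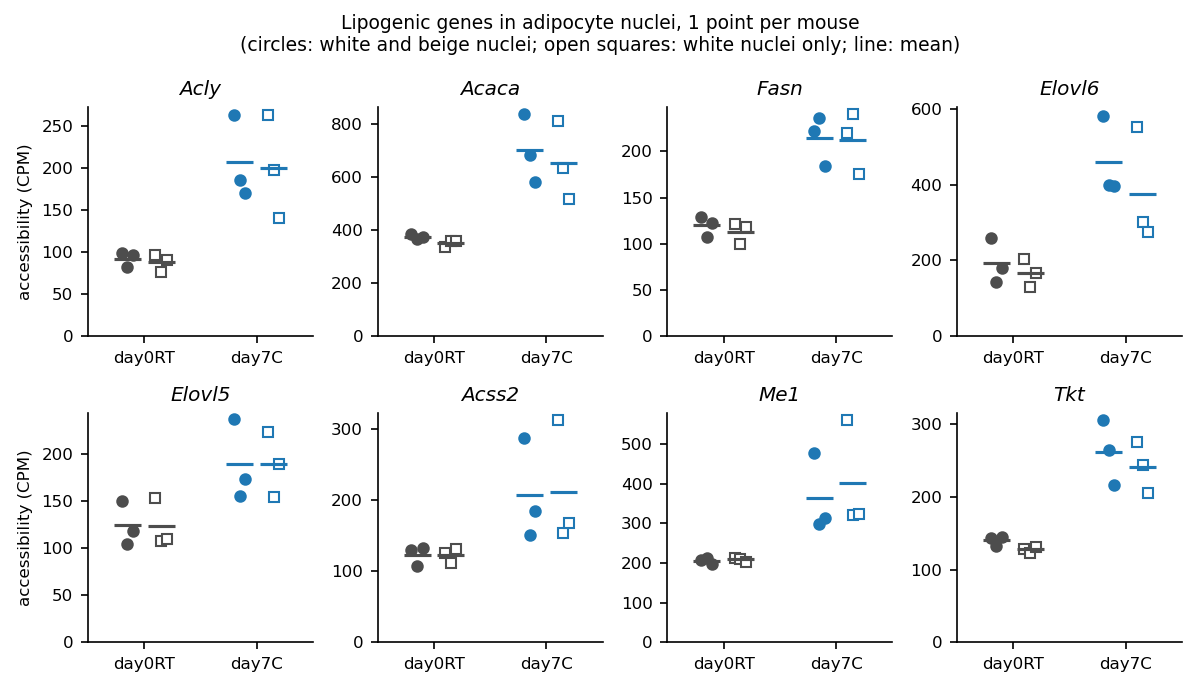
Accessibility in CPM (vertical axes) of 8 lipogenic genes in the 3 day0RT (grey) and 3 day7C (blue) mice. Circles are sums over white and beige nuclei, open squares are white nuclei only, and lines are means of 3 mice. For Acly the day7C circles sit between 171 and 263 CPM and the day0RT circles between 82.5 and 98.6 CPM, and the squares lie near the circles.

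At lipogenic genes most peaks that rose lay more than 2000 bases from a gene start. The peaks of a gene were taken over its body and 2000 bases upstream, so none could lie between genes. The positions of all tested peaks at these genes were not compared. Across Acly, Acss2, Acaca, Acacb, Fasn, Elovl6, Me1 and Tkt 34 peaks were called higher, 32 of them in gene bodies and 2 within 2000 bases of a gene start, and 0 were called lower. At Acly 4 of 6 tested peaks were higher, against 1.8% of the 47835 tested peaks, and the peak at chr11:100504918-100506339, 22372 bases into the gene and the source of the Acly window above, had the smallest p of them. It measured 2.28, 3.81 and 8.78 CPM in day0RT and 73.2, 22.6 and 36.8 CPM in day7C. It was near 0 at room temperature, and day7C mouse 1 stood highest (log2 fold change 2.89 ± 0.39, adjusted p = 6.21e-09). In white nuclei the same peak gave 2.92 (adjusted p = 2.25e-05), while DESeq2 did not call it (adjusted p = 0.059). A peak 40593 bases into the gene had 0 counts in each day0RT mouse and 22, 3 and 6 in the day7C mice.

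Acaca had 12 of 33 tested peaks higher, all between 62956 and 265482 bases into the gene. Most of these 12 lie nearer to the start of another gene. By nearest start, Gm11437 (8) and Aatf (7) held the most higher peaks of all genes. The peak at the Acaca start went the other way, from 31.9, 41.9 and 37.6 CPM to 20.9, 27.5 and 22.3 CPM. It was not called (-0.67 ± 0.28, adjusted p = 0.163). A sum limited to peaks near the gene start (within 2000 bases) turned the direction of Acaca (-0.58, adjusted p = 0.361) and left 3 of 24 lipogenic genes higher (Elovl6, Tkt and the carbohydrate-response factor gene Mlxipl). At Elovl6 4 of 17 tested peaks were higher, among them the one at the gene start and the ESRR-bearing peak printed above. The ESRR-bearing peak measured 11.41, 0 and 3.76 CPM in day0RT and 19.76, 11.31 and 17.98 CPM in day7C, which overlap. It was called by a narrow margin (1.64 ± 0.52, adjusted p = 0.049) and not in white nuclei (1.22, adjusted p = 0.424). The peak at chr3:129591296-129592326 measured 22.8, 15.2 and 6.27 CPM in day0RT and 60.4, 45.3 and 41.1 CPM in day7C (1.92 ± 0.31, adjusted p = 3.42e-06), and DESeq2 called it as well (adjusted p = 0.0088). Tkt had 4 of 10, Me1 3 of 16, Acacb 5 of 24, Fasn 1 of 4 and Acss2 1 of 8 tested peaks higher.

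**Figure D2:**
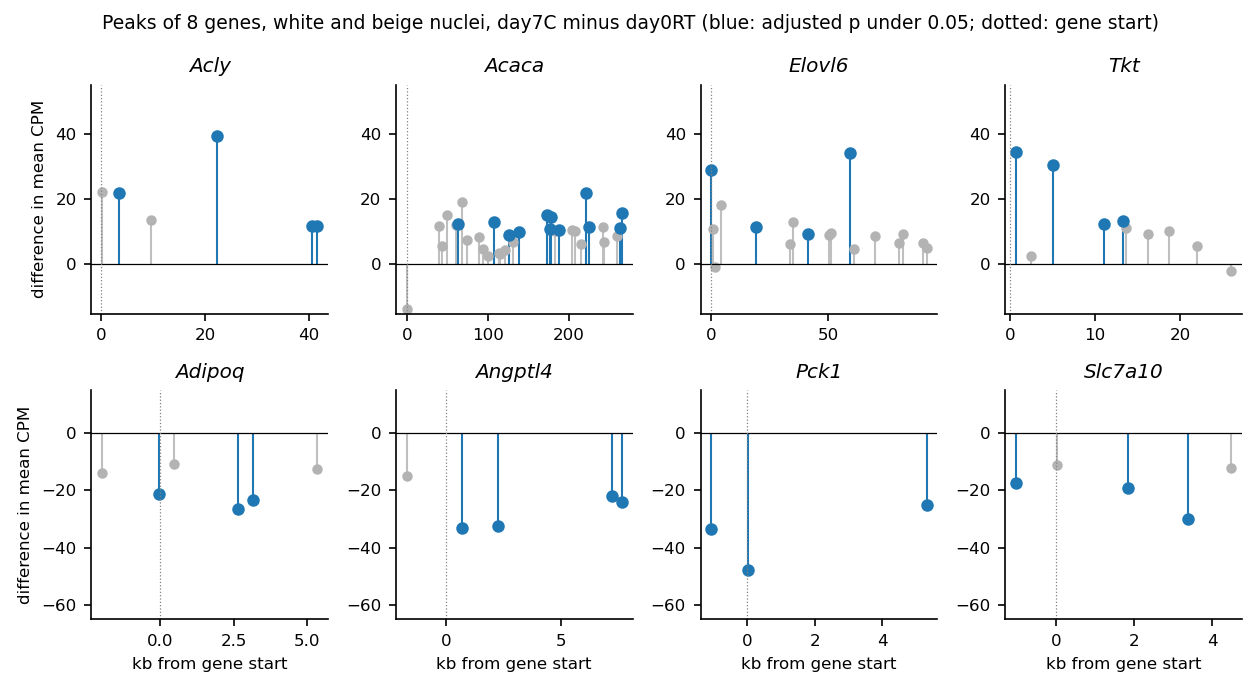
Difference in mean CPM, day7C minus day0RT (vertical axes), of each tested peak of 8 genes by distance from the gene start in kb (horizontal axes). Blue points are peaks with an adjusted p under 0.05, grey points are not called, and the dotted line is the gene start. The called Acaca peaks lie from 62956 bases onward, while those of Adipoq, Angptl4, Pck1 and Slc7a10 all lie below 0.

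The TCA cycle list shared part of the gain. Of 27 tested members 4 rose, against 2.97% of all tested genes, and none fell, with a median of 0.23. White nuclei gave 0 of 26 called by edgeR or DESeq2. There 5 had an unadjusted p under 0.05, beside 1910 of all 13508 tested genes. Ogdh, a subunit of the 2-oxoglutarate dehydrogenase, measured 16.4, 17.9 and 9.37 CPM in day0RT and 43.7, 59.0 and 41.5 CPM in day7C. The groups lay apart, with a log2 fold change of 1.83 ± 0.29 (adjusted p = 7.69e-06). In white nuclei it gave 1.11 (adjusted p = 0.0967). The citrate synthase gene Cs rose from 152, 140 and 161 CPM to 235, 224 and 234 CPM (0.59 ± 0.13, adjusted p = 0.00116), and it gave 0.44 in white nuclei (adjusted p = 0.0967). The succinyl-CoA ligase genes Suclg2 (0.47, adjusted p = 0.032) and Suclg1 (0.53, adjusted p = 0.047) were called with less margin. Suclg1 lost its call when any of the 6 mice was left out and gave -0.037 in thinned nuclei, and Suclg2 lost its call in 4 of the 6 fits. The list held 2 called members without day0RT mouse 2, day7C mouse 1 or day7C mouse 2. DESeq2 called Cs of the 4 and gave no adjusted p for Ogdh.

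Other lists of energy metabolism held 1 or 2 called members each, beside 2.97% of all tested genes called higher. In white nuclei 0 of 23 genes of fatty acid oxidation and 0 of 22 of glycolysis were called by edgeR or DESeq2. In each list 3 had an unadjusted p under 0.05 there, beside 1910 of all 13508 tested genes. In the combined sum 2 of 23 genes of fatty acid oxidation rose. They were Acsl5, an acyl-CoA synthetase (1.13 ± 0.18, adjusted p = 6.7e-06), and Cpt1b, the carnitine palmitoyltransferase of muscle and brown fat (1.16 ± 0.28, adjusted p = 0.00486). Respiratory chain genes counted 1 of 22, Cox10, which builds heme A for complex IV (0.75 ± 0.14; white nuclei 0.62, adjusted p = 0.0123). Glycolysis counted 1 of 22, the pyruvate kinase gene Pkm (0.64 ± 0.15, adjusted p = 0.00418). Pkm lost its call without day7C mouse 1, and 0 to 2 genes of glycolysis were called higher with a mouse left out. Cpt1b lost its call without day0RT mouse 3, and Cox10 its white call without day0RT mouse 1 or day7C mouse 2. Creatine and calcium cycling counted 1 of 15, Itpr1, a calcium channel of the endoplasmic reticulum. Itpr1 measured 481, 459 and 489 CPM in day0RT and 831, 746 and 737 CPM in day7C (0.69 ± 0.10, adjusted p = 3.6e-06; white nuclei 0.60, adjusted p = 0.0005).

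Thermogenic genes rose in the combined sum, while none was called in the fit of white nuclei to all mice. Of 27 tested members 9 were higher, against 2.97% of all tested genes, and 0 lower, with a median of 0.29 and 26 of 27 above 0. The paper names Ucp1, Slc4a4, Pank1, Acot11, Dio2 and Kcnk3 as highly accessible in beige adipocytes of these same data. It names Otop1 and Cidea as accessible late in its trajectory, so the count is no independent result. Day7C mouse 1 was the highest in 8 of the 9, and without it 6 were called. Without day0RT mouse 3 the count was 5. DESeq2 called 4 of the 9 and gave no adjusted p for the other 5, Ucp1 among them. In white nuclei 0 of 24 were called by edgeR or DESeq2, with a median of 0.17. There 6 had an unadjusted p under 0.05, beside 1910 of all 13508 tested genes. With the beige share matched 1 of 26 was called, with a median of 0.16. Without day7C mouse 3, 2 were called in white nuclei (Otop1 and Acot11). Ucp1 measured 8.22, 3.59 and 9.37 CPM in day0RT and 37.1, 22.7 and 19.9 CPM in day7C. These rest on 4, 1 and 8 counts and on 34, 15 and 25 counts, without overlap, and gave a log2 fold change of 1.70 ± 0.41 (adjusted p = 0.00483). Ucp1 was under the filter in white nuclei, where it measured 3.27 ± 0.77 CPM (SD, n = 3) in day0RT and 6.83 ± 2.94 in day7C, without TMM scaling. With the beige share matched it gave 0.55 (adjusted p = 0.66). The call was lost without day7C mouse 1 (1.37, adjusted p = 0.0797). The difference between the combined sum and the white sum was itself not tested, for this or any other gene.

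Dio2, which makes active thyroid hormone, measured 26.7, 14.3 and 19.9 CPM in day0RT and 61.1, 51.5 and 44.7 CPM in day7C. The groups were well apart (1.29 ± 0.25, adjusted p = 0.000337), and Dio2 was the thermogenic gene still called with the beige share matched (1.02, adjusted p = 0.028). Acot11, an acyl-CoA thioesterase of brown fat, rose from 101, 111 and 129 CPM to 283, 195 and 207 CPM (0.97 ± 0.15, adjusted p = 3.39e-06) and gave 0.50 in white nuclei (adjusted p = 0.0981). Otop1 (1.18), Pank1 (0.84), Kcnk3 (0.50), Slc4a4 (0.42), Cpt1b (1.16) and the lipid droplet protein gene Cidea (0.64) completed the 9. Cidea lost its call in 4 of the 6 fits that left out a mouse, those without any of the day0RT mice or without day7C mouse 1 (0.50 to 0.77). Slc4a4 lost it in 4 as well, those without day0RT mouse 2 or 3 or day7C mouse 1 or 2. The coactivator gene Ppargc1b was not called (0.19, adjusted p = 0.334), with 374, 402 and 414 CPM in day0RT against 523, 455 and 393 CPM in day7C, which overlap.

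**Figure D3:**
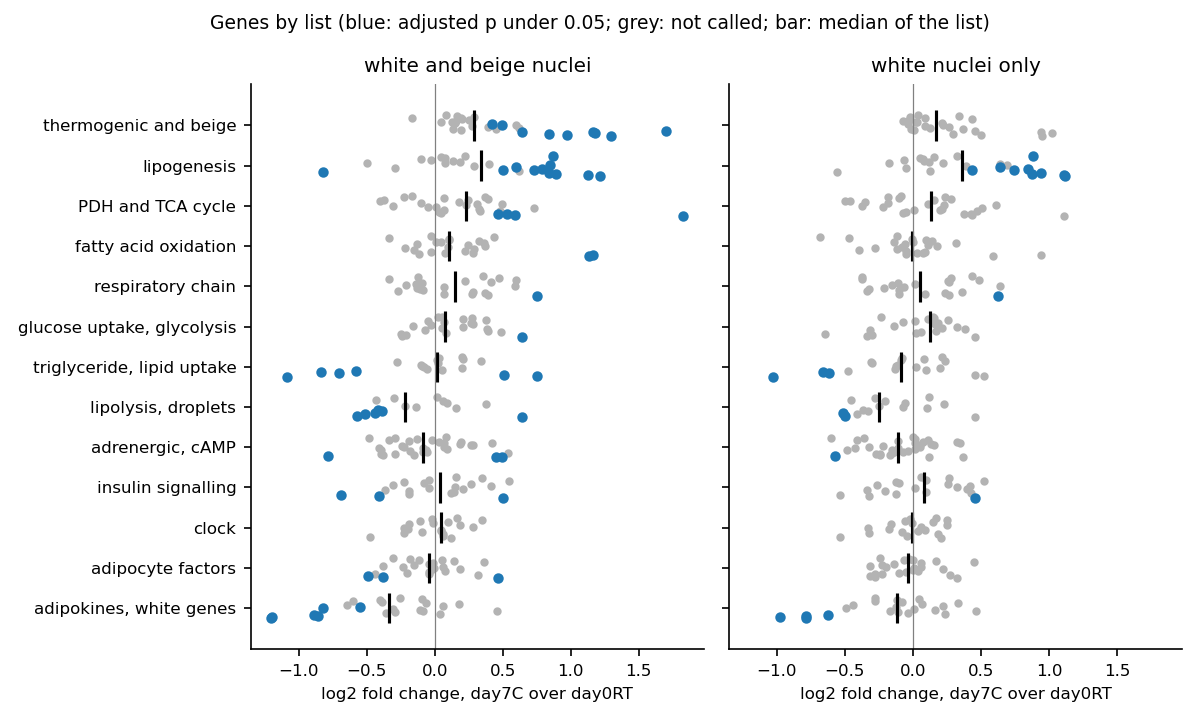
Log2 fold change, day7C over day0RT (horizontal axis), of each tested gene of 13 lists, in white and beige nuclei (left) and in white nuclei only (right). Blue points have an adjusted p under 0.05, grey points are not called, and black bars are list medians. The lipogenesis median stays at 0.34 and 0.36, while the thermogenic list has 9 called genes on the left and 0 on the right.

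The genes whose change shrank most in white nuclei were Fhdc1, Shtn1, Greb1, Mapre3, Kcp and Sult1e1. Shtn1, which encodes shootin-1, measured 4.11, 14.3 and 15.2 CPM in day0RT and 37.1, 34.8 and 31.9 CPM in day7C (1.54 ± 0.33, adjusted p = 0.0014), against 0.08 in white nuclei. Greb1 went from 1.11 to 0.03 and Mapre3, a microtubule end-binding protein gene, from 1.18 to 0.24. Genes chosen for this drop must owe much of their combined gain to beige nuclei, so their high values there follow from the choice. In beige nuclei of day7C Shtn1 measured 79.0 ± 7.78 CPM, Greb1 101 ± 25.3 and Mapre3 126 ± 3.72 (SD, n = 3, without TMM scaling). In the 58 beige nuclei of day0RT, 12 of them in mouse 2, they rested on 2, 3 and 7 counts in all. Elovl6 was high in both kinds, with 366 ± 147 CPM in white and 647 ± 23.5 CPM in beige nuclei of day7C against 164 ± 37.0 and 441 ± 136 CPM in day0RT. The clusters were drawn from these same counts, so nuclei with open beige genes leave the white cluster by its definition.

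Genes of the hormones and lipid store of white adipocytes went the other way. Of 22 tested members of the list of adipokines and white adipocyte genes, 6 fell, against 2.11% of all tested genes, and none rose, with a median of -0.33. The paper names Car3 and Lrp3 among the top white adipocyte genes of these same data. It also names Med16, Nnat and Car3 as losing accessibility early along its trajectory. Their fall here was therefore largely set in advance, and the count is no independent result. In white nuclei 4 fell, against 0.74%, with a median of -0.12, but Adipoq alone was called without day0RT mouse 1, day0RT mouse 2 or day7C mouse 1, and 2 without day7C mouse 3, Adipoq not among them. Adipoq, which encodes adiponectin, measured 265, 204 and 204 CPM in day0RT and 132, 141 and 105 CPM in day7C. All day7C mice lay below all day0RT mice (-0.86 ± 0.14, adjusted p = 2.34e-05; white nuclei -0.78, adjusted p = 0.00175). Cfd, which encodes adipsin, fell from 76.0, 64.6 and 52.7 CPM to 26.2, 27.2 and 27.1 CPM (-1.20 ± 0.22, adjusted p = 0.000111). White nuclei gave -0.78 for Cfd (adjusted p = 0.047), a call lost in 5 of the 6 fits that left out a mouse and with a replicate block (adjusted p = 0.0525).

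Nnat, which encodes neuronatin, measured 76.0, 82.5 and 68.0 CPM in day0RT and 24.0, 37.8 and 34.3 CPM in day7C. The groups did not overlap (-1.19 ± 0.22, adjusted p = 0.000165; white nuclei -0.98, adjusted p = 0.0132). A peak 46377 bases before Nnat, chr2:157513036-157514367, fell as well, from 50.2, 76.2 and 61.4 CPM to 19.8, 14.5 and 24.0 CPM (-1.57 ± 0.25, adjusted p = 2.98e-06), also by DESeq2 (adjusted p = 0.008). Cfd lies among other genes that fell: the proteases Elane (-1.10) and Prss57 (-1.20), and Med16 (-0.89), a Mediator subunit gene of the list, which holds the peak with the NR3C consensus printed above. That peak measured 116, 118 and 108 CPM in day0RT and 18.6, 45.3 and 52.2 CPM in day7C (-1.50 ± 0.19, adjusted p = 9.02e-11; DESeq2 adjusted p = 0.064). Elane and Prss57 are best known from myeloid cells. Among the 733 called genes 55 share a peak with another called gene, Prss57 with Palm among them, so neighbours are not separate results. Car3, a carbonic anhydrase abundant in fat (-0.55), and Lrp3 (-0.82) also fell in the combined sum. In white nuclei they gave -0.12 (adjusted p = 0.737) and -0.49 (adjusted p = 0.117).

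In the list of triglyceride synthesis and lipid uptake 4 of 19 genes fell, against 2.11% of all tested genes, and 2 rose, against 2.97%, with a median of 0.02. In white nuclei 3 fell, and Angptl4 alone without day0RT mouse 1. Angptl4, the inhibitor of lipoprotein lipase, measured 251, 222 and 168 CPM in day0RT and 108, 98.4 and 87.0 CPM in day7C. All day7C mice were lower, with a log2 fold change of -1.09 ± 0.17 (adjusted p = 1.39e-05) and -1.03 in white nuclei (adjusted p = 0.000483). Pck1, which supplies glycerol phosphate, fell from 216, 230 and 196 CPM to 108, 113 and 127 CPM (-0.84 ± 0.16, adjusted p = 0.000337; white nuclei -0.66, adjusted p = 0.024). The last enzyme of triglyceride synthesis, Dgat1, gave -0.70 (adjusted p = 0.000289; white nuclei -0.62, adjusted p = 0.0137), and the fatty acid binding protein gene Fabp4 -0.58 (adjusted p = 0.00291; white nuclei -0.48, adjusted p = 0.0591). The glycerol kinase gene Gk (0.75, adjusted p = 0.015) and Mogat1 (0.51, adjusted p = 0.0482) rose, and neither was called in white nuclei. Mogat1 was not called with a replicate block (adjusted p = 0.0521), with only the 6 mice (adjusted p = 0.0508), with DESeq2 (adjusted p = 0.129) or without day0RT mouse 2, day0RT mouse 3 or day7C mouse 1. Gk lost its call without day0RT mouse 1 or day7C mouse 2.

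Among 15 tested genes of lipolysis and the lipid droplet 5 fell, against 2.11% of all tested genes, and 1, Cidea, rose, with a median of -0.22. Those that fell were the lipases Pnpla2 (-0.41, adjusted p = 0.0324) and Lipe (-0.39, adjusted p = 0.0292) and the droplet coat genes Plin1 (-0.44), Plin4 (-0.51) and Cidec (-0.57). Cidec measured 240, 255 and 221 CPM in day0RT and 154, 160 and 159 CPM in day7C, without overlap (adjusted p = 0.0015). Plin1 (-0.51, adjusted p = 0.013) and Cidec (-0.50, adjusted p = 0.039) were the 2 called in white nuclei. There Cidec lost its call whichever mouse was left out and Plin1 in 3 fits, so that 0 were called without day0RT mouse 1, day7C mouse 1 or day7C mouse 3, and DESeq2 called Plin1 only. In the combined sum Pnpla2 and Lipe lost their calls in 4 of the 6 fits each and with DESeq2, and Plin1 in 3. That left 2 called lower, Plin4 and Cidec, without day0RT mouse 1 or day7C mouse 1. At single peaks, 3 of 6 tested at Adipoq, 4 of 5 at Angptl4, 3 of 3 at Pck1, 4 of 5 at Dgat1 and 2 of 2 at Cfd were lower, against 1.34% of all tested peaks. These are short genes, and the called peaks lay within 7678 bases of the gene start.

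The counts of the signalling and transcription factor lists stand beside 2.97% of all tested genes called higher and 2.11% called lower. Of 33 tested genes of adrenergic receptors and cAMP signalling, 2 rose and 1 fell. The adenylyl cyclase gene Adcy5 measured 460, 556 and 552 CPM in day0RT and 243, 321 and 343 CPM in day7C (-0.78 ± 0.12, adjusted p = 2.68e-06; white nuclei -0.57, adjusted p = 0.00222, a call lost without day7C mouse 1). The cyclase gene Adcy9 gave 0.50 (adjusted p = 0.0088) and the receptor gene Adra1a 0.45 (adjusted p = 0.016), and neither was called in white nuclei or, in the combined sum, without day0RT mouse 1. In insulin signalling Tbc1d4, a regulator of glucose transporter traffic, rose (0.50, adjusted p = 0.00135; white nuclei 0.46, adjusted p = 0.0221), while Trarg1 fell (-0.69). Tbc1d4 lost its white call in 4 of the 6 fits that left out a mouse. Of 24 adipocyte transcription factor genes Zeb1 rose (0.47) and Cebpa (-0.49) and Zfp423 (-0.38) fell in the combined sum. In white nuclei 0 were called by edgeR or DESeq2. There 7 had an unadjusted p under 0.05, beside 1910 of all 13508 tested genes. Of the 6 fits that left out a mouse, Cebpa lost its call in 5, Zeb1 in 4 and Zfp423 in 2, and DESeq2 called Zfp423 only. Pparg, the master regulator of adipocytes, measured 497, 524 and 462 CPM in day0RT and 551, 610 and 661 CPM in day7C, without overlap but short of the threshold (0.32, adjusted p = 0.0512).

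Of the 27 genes for ERR, MEF2 and their partners, 2 rose, against 2.97% of all tested genes. They were Esrrb (0.79, adjusted p = 0.0023) and Perm1 (adjusted p = 0.00112). In white nuclei 0 of 26 were called by edgeR or DESeq2 (5 at an unadjusted p under 0.05, beside 1910 of all 13508 tested genes). Perm1, a muscle regulator induced by ERR, had 2, 0 and 2 counts in day0RT and 17, 12 and 22 in day7C. Of 21 tested genes for secreted factors of vessels and nerves, 1 rose and 1 fell, against 2.97% and 2.11% of all tested genes. Fgf1 rose (0.54, adjusted p = 0.0144) and Vegfa fell (-0.42, adjusted p = 0.0179). Neither was called in white nuclei, and each lost its call in at least 2 fits that left out a mouse. None of the 19 clock genes and none of the 15 heat shock, hypoxia and immediate early genes tested were called by edgeR or DESeq2, with 1 and 2 at an unadjusted p under 0.05 and medians of 0.04 and -0.10. Among the latter Txnip gave -0.44 (adjusted p = 0.0611), and the clock gene Rora 0.12 (adjusted p = 0.555).

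Changes were ranked by size among called genes with a mean of at least 20 counts and no overlap between the groups. This mean was not required in each group, so a gene with few day0RT counts could pass. The 15 largest gains were those of Ogdh and Dio2 and of 13 genes outside these lists. Summed over the day0RT mice, Ogdh rested on 19 counts in white and 2 in beige nuclei, and Grm7 on 18 and 0. In day7C these counts were 53 and 78 for Ogdh and 56 and 49 for Grm7. The size of such gains therefore rests on few day0RT counts. Galnt17, a glycosyltransferase gene, measured 22.6, 21.5 and 28.1 CPM in day0RT and 76.4, 75.7 and 78.2 CPM in day7C. The day7C mice lay close together (1.60 ± 0.22, adjusted p = 3.44e-07; white nuclei 1.23, adjusted p = 0.00126). The glutamate receptor gene Grm7 (1.73) and Cib4 (1.58), Tmem246 (1.55), Fhdc1 (1.46), Fbxl2 (1.43), Acnat2 (1.31), Col24a1 (1.25), the M-band protein gene Myom1 (1.28) and the glutaredoxin gene Glrx (1.30) were among them. So were Hephl1 (1.53), the virus receptor gene Cxadr (1.26) and the predicted gene Gm44596 (1.26). In white nuclei the 8 largest gains were those of Galnt17, Hephl1, Gm44596, Elovl6, Acly, the corepressor gene Runx1t1 (1.12), Nabp1 (1.09) and Frmd3 (1.06). Acnat2 was called in white nuclei too (1.47, adjusted p = 0.00316) but stood there under the minimum of 20 counts set for ranking.

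The largest falls after Prss57, Cfd and Nnat included Gpx3, a secreted glutathione peroxidase, at 47.2, 50.2 and 55.1 CPM in day0RT and 19.6, 28.8 and 23.9 CPM in day7C. It fell in both sums (-1.13 ± 0.23, adjusted p = 0.000749; white nuclei -1.09, adjusted p = 0.013). Slc7a10, an amino acid transporter and known white adipocyte marker, measured 205, 133 and 139 CPM in day0RT and 76.4, 75.7 and 80.6 CPM in day7C (-1.03 ± 0.17, adjusted p = 1.39e-05; white nuclei -0.71, adjusted p = 0.013). Endou (-1.12) and its neighbour Rapgef3 (-1.05), which encodes a cAMP sensor, Mxra8 (-1.11), Slc16a6 (-1.18), Pabpc1l (-1.13), Smim1 (-1.06), Card14 (-1.04) and the lipopolysaccharide-binding protein gene Lbp (-1.04) made up the rest with Elane and Angptl4. In white nuclei the 8 largest falls were those of Nnat, Pabpc1l, Gpx3, Angptl4, the ribosomal protein gene Rpl13 (-1.08), Heyl (-1.03), Dnah2 (-0.95) and Cd300lg (-0.94).

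Across single peaks 1499 of 47835 (3.13%) were called, 859 higher (1.8%) and 640 lower (1.34%). In white nuclei 158 of 32541 (0.486%) were called, 107 higher (0.329%) and 51 lower (0.157%), and 150 of the 158 were among the 1499. Single peaks are thinly covered, with a median of 11.5 counts per mouse, and the counts of called peaks depend on the tool. DESeq2 called 29 of the 1499 peaks and 0 in white nuclei, where 2083 had an unadjusted p under 0.05, against 3960 with edgeR. Among called peaks averaging 20 or more counts a mouse, with no overlap between the groups (80 higher, 241 lower), the largest gains besides Acly and Elovl6 lay 10313 bases before Dpy19l1 (2.18 ± 0.33, adjusted p = 7.08e-07), in Abhd12b (1.45), in Gpd2, the mitochondrial glycerol phosphate dehydrogenase gene (1.44), and 17059 bases before Ndufs4, a complex I subunit gene (1.44). Under the same limits the largest falls besides those near Nnat and in Med16 lay 7659 bases before 4931406P16Rik (-1.59 ± 0.22, adjusted p = 1.07e-08), at the starts of Palm (-1.51) and Slit3 (-1.44), and in Alox5 (-1.39). Some called peaks with fewer counts had larger log2 fold changes than the Dpy19l1 peak, among them those of Immp2l (3.20), B3gat1 (2.53) and Mcee (2.26) printed above. A thinly covered peak needs a larger change to be called, so such values follow in part from the selection.

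Peaks that gained accessibility lay mostly away from gene starts. Within 2000 bases of a gene start lay 24.4% of all tested peaks, 6.75% of those called higher and 20.3% of those called lower. Gene bodies held 45.4%, 53.9% and 42.0%, and stretches between genes 30.3%, 39.3% and 37.7%. The median GC content was 49.5%, 46.7% and 51.1%. Depth per nucleus moved with the group, as given above, and its part in these shares was not tested. Too few peaks were called in thinned nuclei to repeat them (3 of 7098). In white nuclei the peaks close to a gene start, by the same 2000 bases, were 30.6% of all tested, 10.3% of the 107 higher and 27.5% of the 51 lower.

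Of the 16 consensus motifs searched on both strands, those named below are given for the same sets, as a description without a test. The ESRR consensus, TCAAGGTCA, stood in 1.82% of all tested peaks, 2.79% of those higher (24 peaks) and 0.781% of those lower (5 peaks). The NBRE, AAAGGTCA, stood in 5.95%, 10.8% and 6.25%, and the MEF2 consensus in 1.85%, 4.42% and 0.938%. The NBRE letters can overlap those of the PPAR-RXR consensus, which stood in 0.675% of tested and 0.815% of higher peaks. The NR3C palindrome stood in 0.855% of all tested peaks, 0.815% of those higher and 2.5% of those lower (16 peaks). Away from gene starts the shares were 1.83% and 2.87% (tested and higher) for ESRR, 6.53% and 10.6% for the NBRE, 2.06% and 4.62% for MEF2, and 0.973% and 3.14% (tested and lower) for NR3C. The ETS letters CCGGAA, common at gene starts, stood in 19.0% of all tested peaks and 7.57% of those higher, and in 10.5% and 6.24% away from gene starts. The E-box, marked in the Acly window, was not more frequent in higher peaks. It stood in 14.9% of all tested and 13.6% of higher peaks, and in 17.2% and 12.1% in white nuclei. In white nuclei the ESRR consensus stood in 1.95% of tested peaks and in 1 of the 107 higher (0.935%) and 1 of the 51 lower (1.96%), so the larger share in higher peaks was not seen there. The NBRE stood in 6.14% of tested and 10.3% of higher, and MEF2 in 1.87% and 2.80% (3 peaks). NR3C stood in 0.956% of tested, 1.96% of lower (1 peak) and 1.87% of higher (2 peaks), so a larger share in lower peaks alone was not seen there. The STAT consensus stood in 23.2% of all tested peaks and 26.7% of those higher. In white nuclei it stood in 25.2% of tested and 39.3% of higher peaks (42 peaks). The TEAD consensus stood in 36.7% of all tested and 41.9% of lower peaks, and that of AP-1 in 15.0% and 19.1%. A match of letters does not show that a factor was bound.

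**Figure D4:**
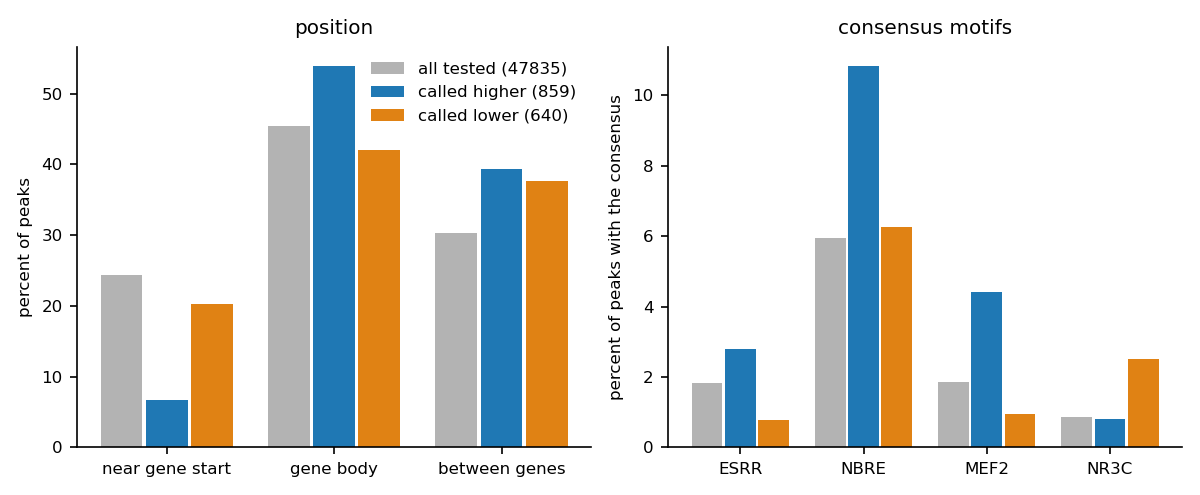
Share of peaks in percent (vertical axes) by position (left) and by consensus motif held (right), for all 47835 tested peaks (grey), 859 called higher in day7C (blue) and 640 called lower (orange). Peaks called higher lie near a gene start in 6.75% against 24.4% of all tested, and hold the NBRE in 10.8% against 5.95%.

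The same genes in the other groups are given side by side, since all groups share the day0RT mice. Elovl6 measured 194 ± 59.1 CPM (SD, n = 3) in day0RT, 303 ± 39.8 in day1C, 269 ± 2.27 in day3C and 459 ± 107 in day7C, and 303 ± 70.3, 379 ± 95.5 and 344 ± 67.6 after 1, 3 and 7 days of CL. Acly measured 92.4 ± 8.67, 151 ± 55.5, 162 ± 29.8 and 207 ± 49.4 CPM along the cold course, and 130 ± 17.8, 283 ± 89.9 and 169 ± 47.0 CPM along the CL course. Its mean was highest on day 7 in the cold and on day 3 with CL. Ucp1 measured 7.06 ± 3.06, 16.2 ± 7.92, 11.2 ± 1.82 and 26.6 ± 9.22 CPM in the cold and 18.9 ± 16.5, 10.3 ± 2.69 and 15.1 ± 2.84 CPM with CL. The mean after 1 day of CL rests on mouse 1, at 37.3 CPM from 29 adipocyte nuclei, against 5.68 and 13.7 CPM in mice 2 and 3. Cfd measured 64.4 ± 11.6, 49.6 ± 7.43, 44.9 ± 10.3 and 26.9 ± 0.574 CPM in the cold, and 21.9 ± 5.59, 30.7 ± 1.96 and 29.8 ± 6.02 CPM with CL, where it was already low on day 1. Adipoq measured 224 ± 35.1, 183 ± 28.6, 135 ± 26.1 and 126 ± 18.5 CPM in the cold and 125 ± 12.8, 129 ± 10.2 and 126 ± 32.8 CPM with CL. The differences between time courses were not tested.

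**Figure D5:**
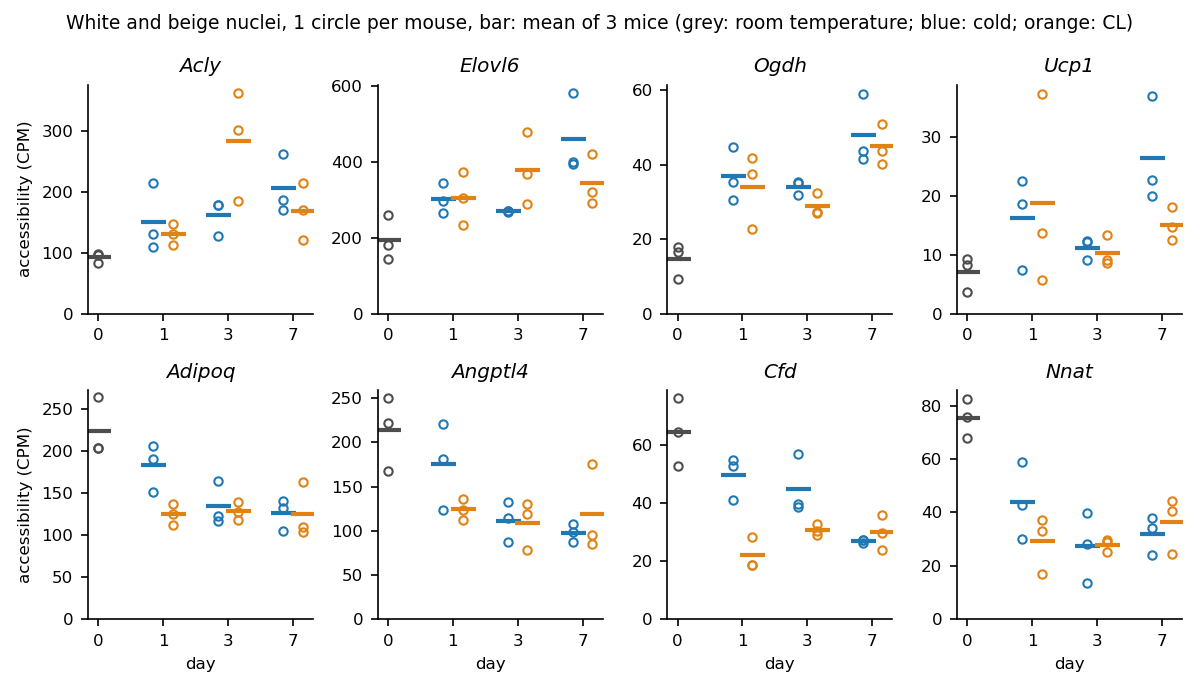
Accessibility in CPM (vertical axes) of 8 genes in white and beige nuclei by day (horizontal axis), 1 circle per mouse and a bar for the mean of 3 mice, at room temperature (grey), in the cold (blue) and with CL (orange). The day7C circles of Acly, Elovl6, Ogdh and Ucp1 lie above and those of Adipoq, Angptl4, Cfd and Nnat below all day0RT circles.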

How the data were processed

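Nuclei of whole iWAT from 21 mice (7 groups of 3) were profiled by snATAC-seq. The authors aligned reads to mm10 with Bowtie2, removed duplicates and mitochondrial reads, called peaks per cluster with MACS2, removed doublets and clustered with Signac. The deposited matrix holds counts of 0 or 1 for 189598 peaks and 32552 nuclei. Mouse, group and cluster come from the deposited annotation per nucleus. The deposited samples are 4 sequencing lanes that pool all mice.

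Counts were summed per mouse over nuclei of the clusters Adipocyte and Beige, or Adipocyte only, per peak and per protein-coding gene (gene body plus 2000 bases upstream, GENCODE vM21 annotation of GRCm38.p6). edgeR 4.0.16 (R 4.3.3; TMM, filterByExpr, quasi-likelihood) was fitted to all 21 mice, testing day7C minus day0RT with Benjamini-Hochberg adjustment over all tested features and a threshold of 0.05. DESeq2 1.42.0 was an alternative. Scripts were tested on simulated data. P-values measure the spread between these mice. Shares were compared by exact permutation tests. The members and gene lists were chosen with earlier results of these data known.

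Named genes were the 15 largest changes per direction (8 in white nuclei) among called genes with a mean of at least 20 counts and no overlap between the groups, up to 4 called members of each list per direction, 6 peaks per direction under the same limits, the 6 called genes that shrank most in white nuclei, and Ucp1, Cidea, Ppargc1b, Pparg and Adipoq. Others were named from the list counts after their values were seen. One item that this rule names is not reported here.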

Additional observations from a re-analysis of the deposited data

How the results depend on the processing

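Most named changes were chosen as called, many also for no overlap between the groups, and the other fits reuse the same mice. Their direction was therefore largely set in advance. Of 1488 alternative values of 100 named changes, 1484 kept their direction, while many calls were lost. The exceptions were Acaca (-0.58), Ppargc1b (-0.19) and Rora (-0.0028) with peaks near the gene start only, and Suclg1 (-0.037) in thinned nuclei. The cause was not tested. For genes in white and beige nuclei, the 733 calls became 300 with DESeq2, 53 in nuclei thinned to 1000 counts (fewer genes tested), 97 with peaks near gene starts (46.4% of them higher, against 58.4%), 306 with the beige share matched, 322 at an adjusted p under 0.01, and 373 to 628 with a mouse left out (423 without day0RT mouse 3, 373 without day7C mouse 1). For white nuclei the 253 became 76 with DESeq2, 10 in thinned nuclei, 27 with gene starts and 65 at the stricter threshold, and 73 to 187 with a mouse left out, over 1.5 times fewer whichever mouse other than day7C mouse 3 was left out. For peaks the 1499 became 29 with DESeq2, 629 without a filter, 979 with only the 6 mice in the fit, 834 in nuclei with at least 2000 counts, 3 in thinned nuclei (528 at an unadjusted p under 0.05), 314 with the beige share matched and 422 at the stricter threshold. They became 855, 791 and 354 without day0RT mouse 1, 2 or 3 and 478 without day7C mouse 1 (range 354 to 1269). For peaks in white nuclei the 158 became 0 with DESeq2 (2083 at an unadjusted p under 0.05), 14 without a filter, 34 in nuclei with at least 2000 counts, 0 in thinned nuclei (139), 28 at the stricter threshold, and 36 to 156 with a mouse left out, again over 1.5 times fewer whichever mouse other than day7C mouse 3 was left out. Of the named calls 20 were lost without day7C mouse 1 and 6 to 19 without any other mouse.

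Same-numbered mice did not deviate together (correlations 0.042, 0.005 and -0.0021), so the numbers were not read as pairs. Each number had its own 8 values of the fourth barcode index (0 shared between numbers), and the study states independent batches without saying which mice each held, so a number may mark a batch. With a replicate block 692 genes and 1434 peaks were called, and 238 and 166 in white nuclei. Of the calls named in the combined sum the block ended that of Mogat1, and of the list calls in white nuclei that of Cfd. RLE scaling left 58.9% of called genes and 64.6% of called peaks higher, against 58.4% and 57.3%. The beige share differed by 24.1 percentage points in nuclei with at least 2000 counts. The adipocyte share differed by 21.2 points among nuclei that are not lymphocytes, without overlap, where the number of other nuclei also moves the share. DESeq2 gave no adjusted p for part of the thinly covered genes, which are not counted as lost.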
